A study of Mus musculus with 6 samples.

Results

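The mitochondrial chromosome of the mouse carries 37 genes: 13 genes for proteins, 2 for ribosomal RNAs and 22 for transfer RNAs. They were chosen by name, as the genes whose symbol begins with mt-, and all 37 were found among the 54281 genes of the count table. GLUTag cells are a murine enteroendocrine line used as a model of the L-cells that secrete GLP-1, and derive from a tumour of a transgenic mouse. Messenger RNA was taken from 6 replicates of GLUTag cells grown in a single condition. The cells grew for 48 h in DMEM with 1 g/L glucose and 10% FBS on Matrigel, with no treatment and no genetic change named. Plate 1 held 3 replicates at passage 23 and plate 2 held 3 replicates at passage 27. These groups differ in plate and passage at once, and plate and passage cannot be told apart. The replicates of a plate share the plate and the passage, so that p-values measure the spread between such replicates only. Whether they come from 1 culture is not stated. Each library was made from poly(A)-selected RNA with oligo-dT primed 3′ end sequencing. A count therefore stands for a read from a transcript end assigned to a gene, and is not divided by the length of the gene. Levels are given as CPM, the counts scaled to a common library total. Throughout, the values of plate 1 are given for replicates 1, 2 and 3, and those of plate 2 for the libraries with the lowest, the middle and the highest total count, since its columns could not be matched to replicate numbers.

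Mitochondria make ATP with the 5 complexes of oxidative phosphorylation, and 4 of these (complexes I, III, IV and V) contain subunits encoded in the mitochondrial chromosome beside many that are encoded in the nucleus. Mitochondrial genes have no introns and are read as long transcripts from both strands, which are then cut, in many places at the tRNAs that lie between the other genes. Most mitochondrial mRNAs then receive a short poly(A) tail. In human cells the mRNA of ND6, the coding gene of the other strand, is known as the exception. The pairs mt-Atp8 and mt-Atp6, and mt-Nd4l and mt-Nd4, are each carried on a shared mRNA in mammals.

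The last bases of each coding gene are shown because the libraries were primed at the 3′ end and because several genes stop within a codon. They were read from the GENCODE M21 transcripts on GRCm38, run 5′ to 3′ on the strand of the gene, and have the stop codon, or the part of it that the gene encodes, in capitals:
mt-Nd1 (chrM:2751-3707): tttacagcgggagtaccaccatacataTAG
mt-Nd2 (chrM:3914-4951): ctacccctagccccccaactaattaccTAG
mt-Co1 (chrM:5328-6872): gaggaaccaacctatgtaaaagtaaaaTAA
mt-Co2 (chrM:7013-7696): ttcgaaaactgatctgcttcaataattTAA
mt-Atp8 (chrM:7766-7969): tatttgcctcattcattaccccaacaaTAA
mt-Atp6 (chrM:7927-8607): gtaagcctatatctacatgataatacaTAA
mt-Co3 (chrM:8607-9390): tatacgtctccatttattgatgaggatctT
mt-Nd3 (chrM:9459-9806): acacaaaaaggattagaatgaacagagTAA
mt-Nd4l (chrM:9877-10173): gtccaaaatctcaacctactacaatgcTAA
mt-Nd4 (chrM:10167-11544): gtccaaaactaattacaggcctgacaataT
mt-Nd5 (chrM:11742-13565): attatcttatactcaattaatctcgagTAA
mt-Nd6 (chrM:13552-14070, minus strand): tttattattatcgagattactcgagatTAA
mt-Cytb (chrM:14145-15288): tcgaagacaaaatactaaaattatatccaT

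In 3 of the 13 genes (mt-Co3, mt-Nd4 and mt-Cytb) the gene ends in a single T, and the poly(A) tail is known to complete such a stop codon. A further 8 genes end in TAA and 2, mt-Nd1 and mt-Nd2, in TAG. mt-Nd6 was the only coding gene on the minus strand, where it lies with 8 of the 22 tRNA genes. Its last 14 bases overlap those of mt-Nd5 on the opposite strand, mt-Atp8 overlaps mt-Atp6 by 43 bases, and mt-Nd4l overlaps mt-Nd4 by 7 bases. The sources used here do not state whether the counting used the strand, so that reads at the overlap of mt-Nd5 and mt-Nd6 may not be told apart, and the values of mt-Nd6 and of the minus-strand tRNA genes depend on it. GC content of the coding genes lay between 31.9% in mt-Atp8 and 41.1% in mt-Nd4l.

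Total counts ranged from 21399987 to 36488198 per library, all plate 2 libraries being deeper than those of plate 1, and 3 counts were worth between 0.0822 and 0.14 CPM. These floors cover counting error only. Of 8 enteroendocrine markers, 7 had more than 3 counts in every library (Pyy did not), and the sum of the 8 was 5012.9 to 5872.7 CPM on plate 1 and 5984.9 to 6892.1 CPM on plate 2. Of the enterocyte markers Fabp2 and Apob had 0 counts in all libraries and 2 of 5 had more than 3 counts in each, and the fibroblast and leukocyte lists had 1 of 4 and 1 of 3. The leukocyte list summed to 0.333 to 0.514 CPM on plate 1 and 0.89 to 1.07 CPM on plate 2. Of the endothelial pair, Pecam1 had 39.59 to 99.76 CPM on plate 1 and 3.408 to 32.72 CPM on plate 2, while Cdh5 had at most 3 counts. The middle library of plate 2 stood apart in part of the mitochondrial genes and also had the lowest Pecam1. Of the enteroendocrine markers it had the lowest Scg2 (32.06 CPM) and Neurod1 (486.8 CPM). It had the highest Cck (1437.7 CPM), Chgb (708.4 CPM), Chga (290.2 CPM), Pcsk1 and Pyy, while its Gcg was neither. The non-coding RNA Bc1 took 9.74, 12 and 9.76% of all counts on plate 1 and 4.33, 4.77 and 3.44% on plate 2, and a share of counts or a CPM depends on this total.

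The 37 genes together took 3.983, 4.033 and 4.849% of the counts on plate 1 and 4.621, 5.322 and 7.266% on plate 2. The highest library was at 1.82 times the lowest, and the ranges of the plates overlapped, since replicate 3 of plate 1 lay above the lowest library of plate 2. The mean was 5.012 ± 1.21% (SD, n = 6 libraries), with 4.288 ± 0.486% on plate 1 and 5.736 ± 1.37% on plate 2 (SD, n = 3 each), a difference of 1.45 percentage points (exact two-sided permutation test, p = 0.2; 3 libraries against 3 cannot go below 0.1). The difference was 0.683 points without the highest library of plate 2, 2.01 points without the lowest, and between 1.3 and 1.73 points with each of the other 4 left out in turn. With Bc1 left out of the totals the difference was 1.19 points (exact permutation p = 0.2), and with the library sizes of the TMM scaling it was 0.532 points (exact permutation p = 0.7). In such bulk libraries fewer mitochondria per cell, less RNA per mitochondrion and more nuclear mRNA cannot be told apart. Pecam1 and Bc1 were lower in every library of plate 2, where the share was higher in mean, and their part in it was not tested beyond the value without Bc1. The summed enteroendocrine and leukocyte markers were higher in every library of plate 2, and their part was not tested either. By CPM 35.2% of the 15669 genes tested between the plates were higher in every plate 2 library, and 4% were lower. Of the single enteroendocrine markers only Chgb and Pcsk1 were higher in every plate 2 library. Gcg, Chga, Scg2, Neurod1, Cck and Pyy overlapped. The leukocyte sum was mostly Cd68, since Ptprc and Cd3e had at most 4 counts in a library.

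By complex, the 7 complex I genes took 1.482 ± 0.178% of the counts on plate 1 and 1.881 ± 0.44% on plate 2, and the single complex III gene 0.4705 ± 0.0481% and 0.6199 ± 0.199% (SD, n = 3). The 2 complex V genes took 0.5854 ± 0.0738% and 0.8596 ± 0.262%. The 3 complex IV genes were the only complex whose ranges did not overlap, with 1.212, 1.219 and 1.377% on plate 1 against 1.566, 1.666 and 2.388% on plate 2 (exact permutation p = 0.1, the smallest p this design allows). By CPM 35.2% of the 15669 genes tested between the plates also lay higher in every plate 2 library, and with the TMM library sizes the complex IV shares overlapped, with 1.323, 1.375 and 1.477% on plate 1 and 1.405, 1.545 and 2.173% on plate 2 (exact permutation p = 0.2). The 2 rRNA genes took 0.4812 ± 0.108% on plate 1 and 0.5025 ± 0.0839% on plate 2 (exact permutation p = 0.8). Relative to the coding and rRNA counts together, rRNA took 11.69, 9.466 and 12.3% on plate 1 and 11.27, 7.724 and 7.924% on plate 2, with overlapping ranges.

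**Figure D1:**
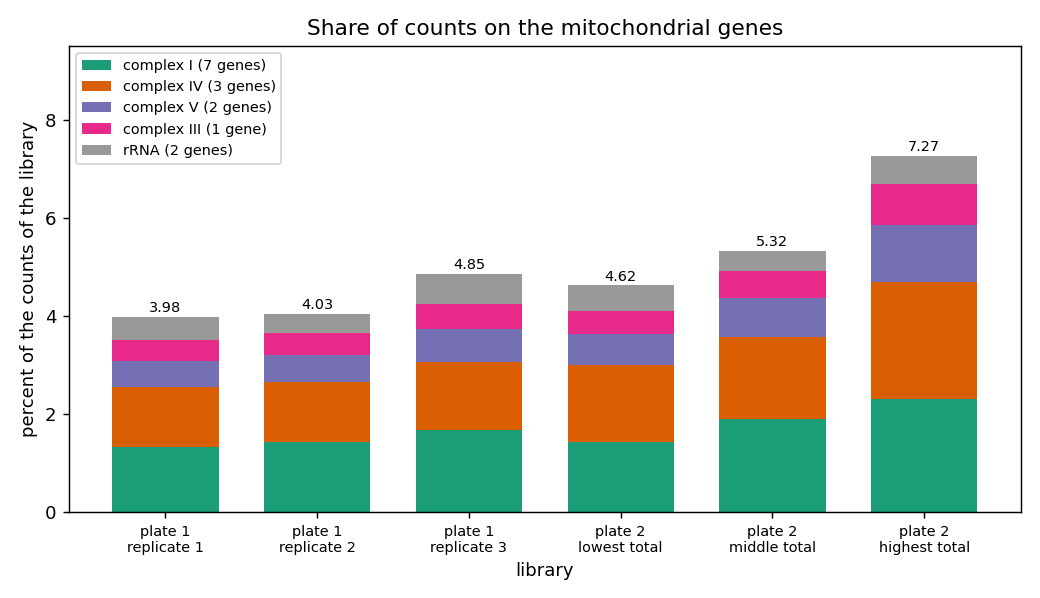
Stacked bars give the percent of the counts of each library on the mitochondrial genes of complexes I, IV, V and III and on the rRNA genes, with the sum over all 37 genes above each bar. The sum lies between 3.98% and 7.27%, and the bar of plate 2 with the lowest total is below that of plate 1 replicate 3.

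Complex I takes electrons from NADH, and 7 of its membrane subunits are mitochondrial. mt-Nd1 had 4320.9, 4496.5 and 5167.8 CPM on plate 1 and 5020.7, 5782.0 and 7963.3 CPM on plate 2. mt-Nd2 had 2912.0, 2607.2 and 3898.0 CPM, then 3106.0, 3968.9 and 4666.3 CPM. mt-Nd4 had 4679.6, 5829.4 and 6149.3 CPM, then 4699.1, 7097.5 and 8577.5 CPM. In these 3 genes the plates overlapped and the highest library of plate 2 had the top value. mt-Nd5 had 426.9, 397.9 and 499.3 CPM on plate 1 and 479.2, 567.4 and 678.6 CPM on plate 2, and mt-Nd4l had 90.23, 85.23 and 120.6 CPM, then 82.11, 143.9 and 138.8 CPM. mt-Nd3 had 915.2, 859.4 and 933.3 CPM, then 918.9, 1442.7 and 1057.9 CPM, with the middle library of plate 2 above the others. In mt-Nd6, the gene of the other strand, the order of the plates was turned, with 18.71, 18.34 and 30.37 CPM (449, 415 and 650 counts) on plate 1 and 9.401, 13.33 and 16.11 CPM (264, 412 and 588 counts) on plate 2, which did not overlap.

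mt-Cytb, the cytochrome b of complex III, had 4326.2, 4541.9 and 5245.8 CPM on plate 1 and 4717.5, 5411.5 and 8466.5 CPM on plate 2. The genes mt-Co1, mt-Co2 and mt-Co3 encode the core of complex IV, which passes electrons to oxygen. mt-Co1 had 2681.6, 2897.1 and 3173.0 CPM on plate 1 and 4074.4, 4832.8 and 6500.4 CPM on plate 2, so that every library of plate 2 was above every library of plate 1. This also held for mt-Co3, with 4656.7, 4787.0 and 4727.6 CPM against 6083.5, 8072.2 and 8375.1 CPM. The third gene, mt-Co2, had 4777.5, 4507.3 and 5873.9 CPM on plate 1 and 5503.9, 3751.0 and 8999.6 CPM on plate 2, where the middle library was the lowest of the 6 and the highest library the top one. Complex V is the ATP synthase, of which mt-Atp6 and mt-Atp8 encode membrane subunits. mt-Atp6 had 5220.8, 5349.0 and 6532.9 CPM, then 6145.5, 7769.6 and 11244.8 CPM, and mt-Atp8 had 150.8, 137.3 and 170.7 CPM, then 161.7, 252.2 and 215 CPM, both with overlap.

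mt-Rnr1 (chrM:70-1024) and mt-Rnr2 (chrM:1094-2675) encode the small and the large rRNA of the mitochondrial ribosome. mt-Rnr1 had 1735.9, 1362.3 and 2165.8 CPM on plate 1 and 1557.7, 1576.8 and 1845.5 CPM on plate 2. For mt-Rnr2 the values were 2920.1, 2455.6 and 3796.1 CPM, then 3650.3, 2533.3 and 3911.5 CPM. Both genes overlapped between the plates and spanned 1.59-fold over the 6 libraries, less than any of the coding genes. Over the 15 coding and rRNA genes, 2 (mt-Co1 and mt-Co3, 13.3%) had a higher CPM in every plate 2 library, where 35.2% of the 15669 genes tested did, and 1 (mt-Nd6, 6.67%) had a lower one, where 4% of the genes tested did. The other 12 overlapped. With the TMM factors the same 3 genes did not overlap, where 12.8% of the genes tested were higher and 12% lower in every plate 2 library.

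Ordered by mean CPM over the 6 libraries, as counts of 3′ ends not divided by gene length, mt-Atp6 was first (7043.8 ± 2255.6; SD, n = 6), followed by mt-Nd4 (6172.1 ± 1493.8), mt-Co3 (6117.0 ± 1717.8), mt-Co2 (5568.9 ± 1839.8), mt-Nd1 (5458.5 ± 1332.3), mt-Cytb (5451.6 ± 1534.1), mt-Co1 (4026.5 ± 1455.0) and mt-Nd2 (3526.4 ± 778.8). These 8 were among the 20 genes of the table with the highest mean CPM. mt-Rnr2 (3211.2 ± 654.3), mt-Rnr1 (1707.3 ± 278.8), mt-Nd3 (1021.2 ± 216.6), mt-Nd5 (508.2 ± 102.2), mt-Atp8 (181.3 ± 43.6), mt-Nd4l (110.1 ± 27.8) and mt-Nd6 (17.71 ± 7.11) came after them. From mt-Rnr2 down, each gene was above the next in all 6 libraries, and mt-Cytb was above mt-Co1 in all 6. The other 7 of the 14 neighbours in this order changed places in at least 1 library: mt-Atp6 led in 4 libraries, mt-Nd4 in replicate 2 of plate 1 and mt-Co3 in the middle library of plate 2. Of all 78 pairs of coding genes, 63 had the same order in every library.

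**Figure D2:**
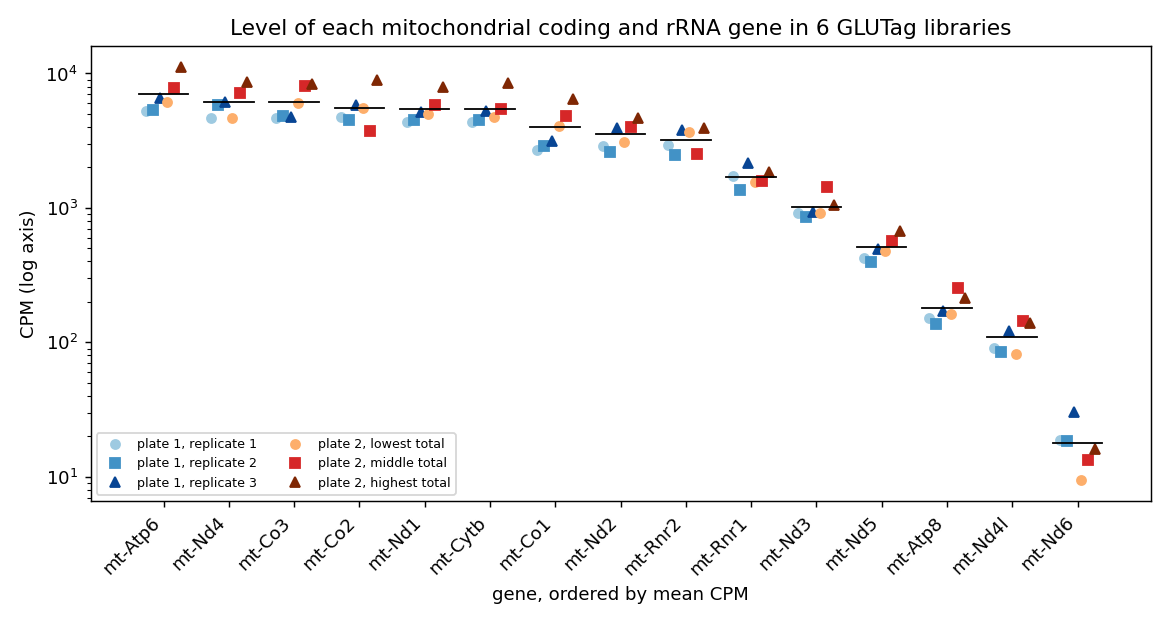
Points give the CPM (log axis) of the 13 coding and 2 rRNA genes in each of the 6 libraries and lines give the mean, from mt-Atp6 (7043.8 CPM) to mt-Nd6 (17.71 CPM). mt-Co1 and mt-Co3 have all plate 2 points above all plate 1 points, and mt-Nd6 has them below.

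The 22 tRNA genes, which are 59 to 75 bases long and whose products carry no poly(A) tail when mature, held 131 counts over the 6 libraries together, against 7690996 on the coding genes and 809094 on the rRNA genes. In 10 of the 22 genes there was no count in any library, which allows up to 3 counts per library, and no gene had more than 3 counts in every library. Per library the 22 genes summed to between 9 and 34 counts. A count in every library was found for mt-Tq (13, 4, 4, 3, 7 and 6 counts) and mt-Tn (6, 13, 7, 3, 7 and 3 counts), which are named here after their values were seen and carry glutamine and asparagine. Both lie on the minus strand. Their last 30 bases, on that strand, were:
mt-Tq (chrM:3772-3842): taagtgtaggttcaattcctattgtcctag
mt-Tn (chrM:5089-5159): ttttcgtaggtttaattcctgccaatctag
The 8 tRNA genes of the minus strand held 97 of the 131 counts, and 7 of them had at least 1 count. The 14 tRNA genes of the plus strand held 34 counts, and 5 of them had at least 1. Since the use of the strand in the counting is not stated, a count on a tRNA gene may come from RNA of the opposite strand, and this split depends on it.

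Genes were compared with each other inside each library on the log2(CPM + 1) scale. The 6 libraries were taken as separate units, although those of a plate share the plate and the passage. The test was an exact two-sided permutation test that flips the signs of the 6 library values. The smallest p is then 0.03125, or 0.03819 after Benjamini-Hochberg adjustment over the 11 comparisons, and all differences reported here as larger had this value and the same sign in 6 of 6 libraries. mt-Atp6 was above mt-Atp8, its partner on the shared mRNA, by 5.25 ± 0.254 (SD, n = 6; 38.1-fold; exact adjusted p = 0.03819), and mt-Nd4 above mt-Nd4l by 5.80 ± 0.182 (55.7-fold). The upstream member of each pair thus took a small part of the counts of the pair, 2.573 ± 0.418% for mt-Atp8 and 1.759 ± 0.213% for mt-Nd4l. Since reads come from transcript ends, an mRNA shared by both genes is counted mainly at its downstream member. The direction of both differences was therefore set by the method, and they do not measure a difference in mRNA level. mt-Nd5 was above mt-Nd6 by 4.83 ± 0.635 and mt-Cytb above mt-Nd6 by 8.23 ± 0.637. Both differed by plate, the first with means of 4.27 on plate 1 and 5.38 on plate 2, the second with 7.68 and 8.78. mt-Nd1 exceeded mt-Nd2 by 0.628 ± 0.148 (1.55-fold). The summed coding genes exceeded the summed rRNA genes by 3.18 ± 0.323 (9.09-fold). These are counts of poly(A)-selected RNA, so that the amount of rRNA in the cells was not measured. The mean log2 level of the 3 mt-Co genes was 2.77 ± 0.268 above that of the 7 mt-Nd genes. This mean of logs includes the low members mt-Nd6, mt-Nd4l and mt-Nd5. mt-Nd4 and mt-Nd1 had a higher mean CPM than mt-Co1, and as sums the complex I genes took 1.681% and the complex IV genes 1.571% of the counts in mean. Summed coding genes were above summed tRNA genes by 14.6 ± 0.67, a value set largely by the added 1 CPM, since all tRNA genes together had at most 1.5 CPM in a library.

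Within complex IV the differences in CPM did not pass the threshold. mt-Co1 was below mt-Co2 by 0.483 on the log2 scale (SD 0.455), in 5 of 6 libraries, the middle library of plate 2 having 0.365 in the other direction (exact sign-flip test, adjusted p = 0.06875). mt-Co3 and mt-Co2 differed by 0.147 ± 0.496 (exact sign-flip p = 0.6875), and without the middle library by -0.0445. In these counts of poly(A)-selected RNA the large rRNA, mt-Rnr2, was above the small one, mt-Rnr1, by 0.901 ± 0.21 (1.87-fold) in 6 of 6 libraries (exact sign-flip test, adjusted p = 0.03819). Dividing by gene length, which counts of 3′ ends do not call for, changed some of these values. Per kb mt-Rnr2 was above mt-Rnr1 by 0.173 ± 0.21, in 5 of 6 libraries (exact sign-flip p = 0.09375, adjusted 0.1031). Per kb the difference of mt-Co1 from mt-Co2 was -1.66 ± 0.455, in 6 of 6 libraries, and passed the threshold (exact sign-flip test, adjusted p = 0.03819).

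Near-identical copies of mitochondrial genes lie in the nuclear chromosomes, and a count can be assigned to either. Words of 31 bases were shared between the 37 genes and the transcripts of 23 nuclear genes, of which 11 had 0 counts in all libraries. The copy that mattered was Gm28438, an unprocessed pseudogene (chr1:24612775-24613119, GRCm38), which shares 312 of its 315 words with mt-Nd3. Over 345 bases compared the genes differ at 1 base, T3C (the mt-Nd3 base first, counted from 1 at its 5′ end). As annotated, the copy ends 3 bases before the end of mt-Nd3, and the chromosome past that end was not compared. The ends are shown because a 3′ tag must be told apart there, with the bases of mt-Nd3 past the annotated end of the copy in capitals:
mt-Nd3: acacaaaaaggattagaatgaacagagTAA
Gm28438: tgaacacaaaaaggattagaatgaacagag

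Gm28438 was assigned 213.8, 93.84 and 411.8 CPM on plate 1 and 497.6, 186.6 and 1050.7 CPM on plate 2. This was 18.94, 9.844 and 30.62% of the counts of the pair on plate 1 and 35.13, 11.45 and 49.83% on plate 2, a 5.06-fold range. The middle library of plate 2, in which mt-Nd3 was highest, had one of the lowest shares on the copy. As a sum, mt-Nd3 and Gm28438 had 1129.0, 953.2 and 1345.1 CPM on plate 1 and 1416.4, 1629.3 and 2108.6 CPM on plate 2, which no longer overlapped (exact permutation p = 0.1, the smallest possible), as 35.2% of the genes tested did in this direction. With the TMM factors the sums overlapped, with 1232.7, 1075.2 and 1442.5 CPM on plate 1 and 1270.9, 1511.0 and 1918.8 CPM on plate 2, and edgeR gave the summed pair a log2 fold change of 0.33 (adjusted p = 0.4003). Among the coding counts the pair took 3.125 ± 0.28%, against 2.318 ± 0.454% for mt-Nd3 alone (SD, n = 6), with overlap between the plates. The level of mt-Nd3 given above therefore depends on how the pair was split. The other 14 coding and rRNA genes had at most 0.228% of their counts assigned to such copies. This is the split made in the assignment of reads and not a measure of the copies. The pseudogenes Gm10222, Gm28439, Gm10925, Gm28437 and Gm28661 share every word with mt-Nd4l, mt-Nd4, mt-Atp6 and mt-Atp8, mt-Co3 and mt-Co2 in that order, so that their reads cannot be told from those of the mitochondrial genes, and all 5 were at 0 in every library. Of the other nuclear genes that share words, Gm13340 on chromosome 2, which shares 685 words with mt-Co1, had 6.123 to 10.72 CPM. Cep295, with 19.13 to 32.76 CPM, shares 4 of its 6124 words with mt-Ty and is a protein-coding gene.

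**Figure D3:**
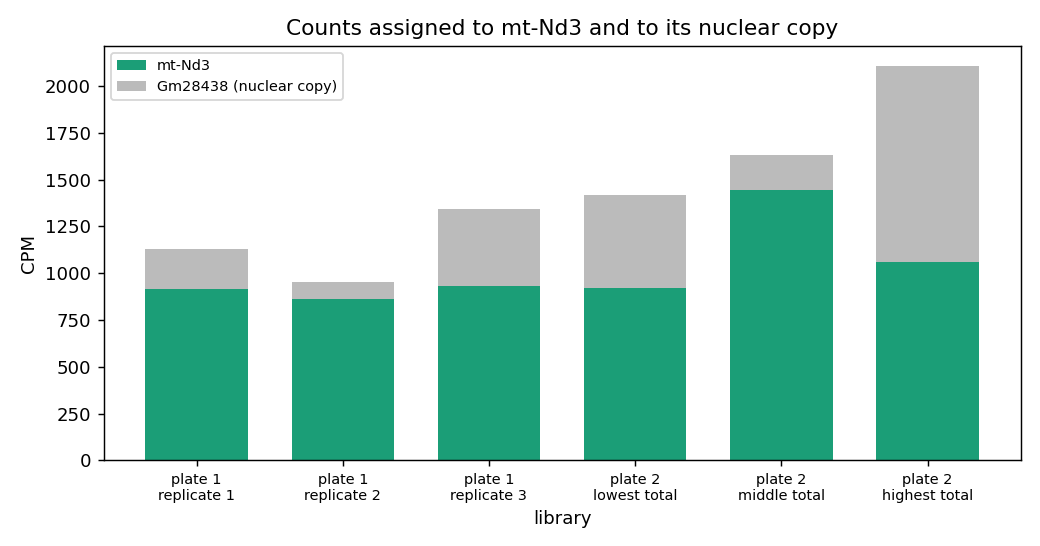
Stacked bars give the CPM assigned to mt-Nd3 and to the nuclear copy Gm28438 in each library. mt-Nd3 alone is highest in the middle library of plate 2 (1442.7 CPM), and the sum is highest in the library with the highest total (2108.6 CPM).

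To see how far the coding genes moved together, each was expressed as a percent of the counts of the 13 coding genes. The coefficient of variation over the 6 libraries was then lower than that of the CPM for 12 of the 13 genes, with a median of 13.6% against 25.3%. mt-Nd6 was the exception, with 47.7% against 40.1%. Dividing by a sum that holds the genes also takes out any change in scaling that they share with other genes. Whether the coding genes moved together more than other sets of genes was not tested. The steadiest was mt-Nd1, with 12.28, 12.31 and 12.15% on plate 1 and 12.25, 11.77 and 11.9% on plate 2 (coefficient of variation 1.84%), followed by mt-Atp6 (15.41 ± 0.801%; SD, n = 6) and mt-Cytb (12.04 ± 0.635%).

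mt-Co1 and mt-Nd6 had shares that did not overlap between the plates. mt-Co1 took 7.623, 7.934 and 7.462% of the coding counts on plate 1 and 9.937, 9.842 and 9.717% on plate 2, and the gap between the plates was wider than the spread within them. mt-Nd6 took 0.0532, 0.05022 and 0.07143%, then 0.02293, 0.02714 and 0.02409%. Each had the smallest p possible (exact permutation p = 0.1; 0.52 after adjustment over 13 genes), so that neither passed the threshold, which no gene could in this design. Set against mt-Nd5, its overlapping neighbour, mt-Nd6 was 4.199, 4.406 and 5.735% of the pair on plate 1 and 1.924, 2.295 and 2.32% on plate 2.

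mt-Co2 took 13.58, 12.34 and 13.81% of the coding counts on plate 1 and 13.42, 7.639 and 13.45% on plate 2, so that 5 libraries lay close to each other and the middle library of plate 2 was apart. In that library the CPM of mt-Co2 was 0.517 times, and that of mt-Rnr2 0.67 times, the mean of the other plate 2 libraries, while mt-Nd3 was at 1.46 times, mt-Atp8 at 1.34 times and mt-Nd4l at 1.3 times. mt-Nd5, mt-Nd2 and mt-Nd6 were at 0.98, 1.02 and 1.04 times. Without this library the share of mt-Co2 differed between the plates by 0.192 percentage points, and with it by -1.74. The cause was not tested.

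**Figure D4:**
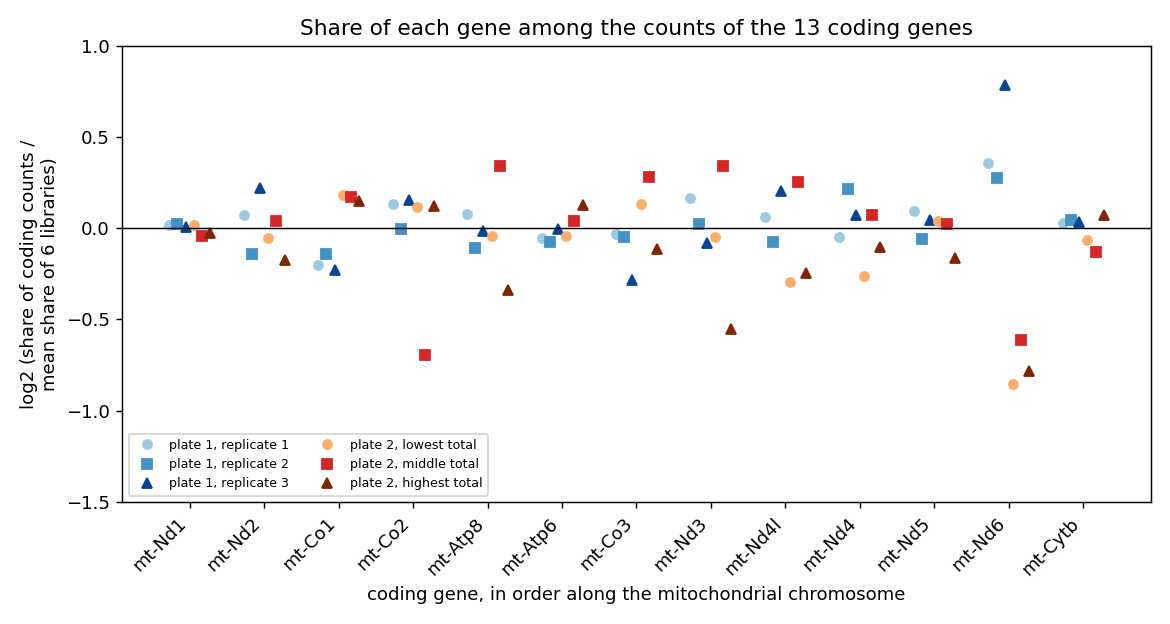
Points give, for each coding gene along the chromosome, the log2 ratio of its share of the coding counts in a library to its mean share over the 6 libraries. mt-Nd1 stays near 0 in all 6, mt-Co1 and mt-Nd6 separate by plate, and mt-Co2 has 1 low point, the middle library of plate 2 (7.639% of the coding counts).

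In the comparison across all genes with edgeR, which used TMM scaling, 29 of the 15669 genes tested were called at an adjusted p under 0.05 (0.185%; 2 higher and 27 lower on plate 2). All 15 coding and rRNA genes passed the filter on low counts, the 22 tRNA genes did not, and none of the 15 was called. Without adjustment, 3 of the 15 had a p under 0.05, and 2520 of all genes tested (16.1%) did. mt-Nd6 had a log2 fold change of -1.05 (SE 0.25, adjusted p = 0.1196), mt-Co1 of 0.55 (SE 0.18, adjusted p = 0.1859) and mt-Co3 of 0.40 (SE 0.15, adjusted p = 0.2388). The values of the other 12 ran from -0.34 in mt-Rnr1 (SE 0.16) to 0.29 in mt-Atp6 (SE 0.21), and mt-Co2 was at 0.00 (SE 0.29). The median of the 15 was 0.074, beside 0.031 for all genes tested. mt-Co1, mt-Co3 and mt-Atp6 kept a positive and mt-Nd6 and mt-Rnr1 a negative value under all 15 alternatives run, while the other 10 changed sign under at least 1. The size of these values was less steady than their sign. Without the highest library of plate 2 mt-Atp6 was at 0.03 and mt-Co1 at 0.35, and without the lowest mt-Atp6 was at 0.48. mt-Rnr1 was at -0.18 without plate 1 replicate 3 and at -0.08 with the library total alone.

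This result depended on the scaling. TMM factors were 0.9159, 0.8866 and 0.9325 on plate 1 and 1.1145, 1.0783 and 1.0989 on plate 2, so that each library of plate 2 counted as larger than its total. With the library total alone the median of all genes moved from 0.031 to 0.299 and 1461 genes were called (9.32%), 1390 of them higher on plate 2 (8.87%). mt-Co3 (log2 fold change 0.67, SE 0.14, adjusted p = 0.03283) and mt-Co1 (0.82, SE 0.18, adjusted p = 0.03346) were then among them, 2 of 15, and the median of the 15 was 0.337, close to that of all genes. mt-Nd6 was -0.79 (SE 0.26, adjusted p = 0.08238). mt-Nd6 passed the threshold with the DESeq2 Wald test (-1.08, adjusted p = 0.004019), where 3.7% of the genes were called, and in edgeR with no filter on low counts (-1.03, adjusted p = 0.002321), where 2.02% of 27022 genes were called and mt-Co1 was also called (0.57, adjusted p = 0.01696). In no fit with a library left out was any of the 15 called.

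**Figure D5:**
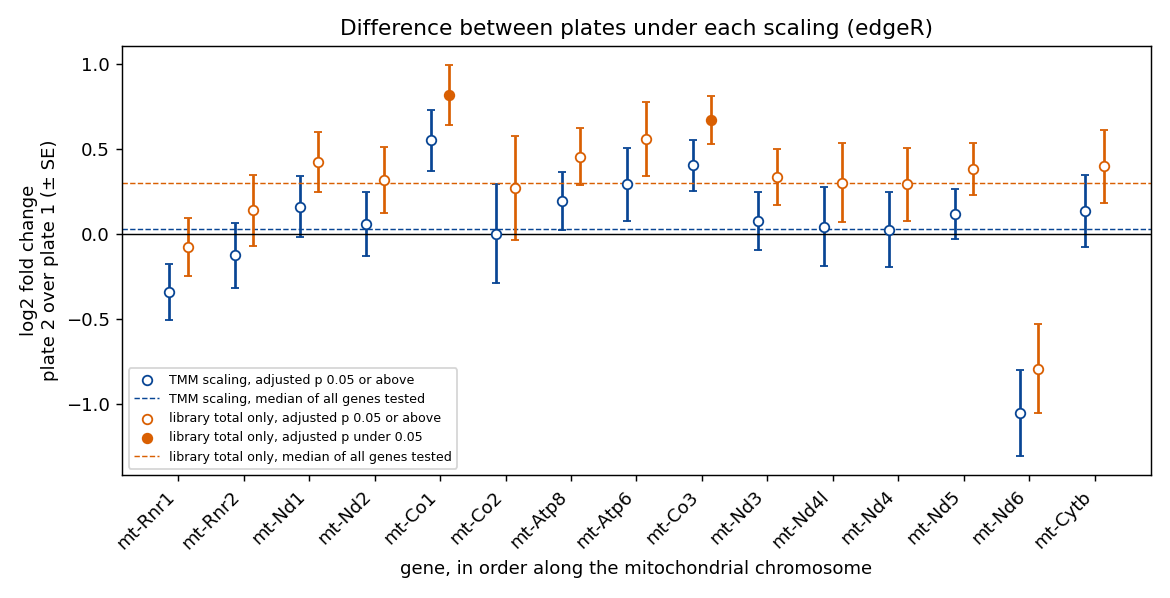
Points give the log2 fold change of plate 2 over plate 1 (bars: SE) for each coding and rRNA gene under TMM scaling and with the library total alone, filled where the adjusted p is under 0.05, and dashed lines give the median of all genes tested (0.031 and 0.299). Only mt-Co1 and mt-Co3 are filled, both with the library total alone.

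Nuclear genes that serve the mitochondrial chromosome were compared between the plates in the same fit. Of the proteins that copy, transcribe, cut or stabilise mitochondrial nucleic acids or regulate these genes, 38 were in the table, 36 were tested and none was called. At an unadjusted p under 0.05 there were 6 (16.7%, beside 16.1% of all genes tested). Their median log2 fold change was 0.036. The highest of them was Slirp, which binds mitochondrial mRNAs together with Lrpprc, with 241.8 ± 17.2 CPM (SD, n = 6). Its log2 fold change was -0.37 in edgeR (SE 0.11, adjusted p = 0.1633), and it was called without the middle library of plate 2 (-0.46, adjusted p = 0.004626), while with the library total alone it was at -0.11 (edgeR adjusted p = 0.5078). In the fit without that library 12% of all genes tested were called, 7.83% lower and 4.2% higher on plate 2, and of the 36 genes 3 were called lower and 3 higher (8.33% each). With the library total alone 4 of the 36 were called, all higher (Polrmt, Tfb1m, Polg and Fastkd3), which is 11.1% beside 8.87% of all genes tested, and 13 had an unadjusted p under 0.05 (36.1%, beside 32%). Among them Polrmt, the mitochondrial RNA polymerase, had 6.835, 11.09 and 11.64 CPM on plate 1 and 14.81, 22.45 and 17.84 CPM on plate 2 (0.63 under TMM scaling, SE 0.24, edgeR adjusted p = 0.2396; 0.90 with the total alone, edgeR adjusted p = 0.048).

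Proteins of the mitochondrial ribosome were listed by symbol, as Mrpl or Mrps with a number, so that any with other names are left out. All 78 genes of this list were tested and none was called, with a median of -0.134 and 12 at an unadjusted p under 0.05 (15.4%, beside 16.1% of all genes tested). Without the middle library of plate 2, 26 of the 78 were called, all lower (33.3%, beside 7.83% of all genes tested), and none was with any other library left out. Mrps26 was the highest, with 864.1, 1050.5 and 854.1 CPM on plate 1 and 667, 232.5 and 756.6 CPM on plate 2, the middle library again being the lowest. It was not called in edgeR (-1.02, SE 0.43, adjusted p = 0.3287), but was with the DESeq2 Wald test (-1.04, adjusted p = 0.03931) and in edgeR without the middle library of plate 2 (-0.69, adjusted p = 0.002118), as one of those 26. With the library total alone it was at -0.74 (edgeR adjusted p = 0.2896). DESeq2 called 4 of the 78, all lower (Mrps5, Mrps26, Mrps21 and Mrpl33; 5.13%, beside 2.71% of all genes tested), and edgeR with no filter on low counts called 3 of these, Mrps5, Mrps21 and Mrpl33, also lower (3.85%, beside 1.07%). With the library total alone 2 of the 78 were called, Mrpl44 and Mrpl3, both higher (2.56%, beside 8.87% of all genes tested), and 18 had an unadjusted p under 0.05 (23.1%, beside 32%).

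Of the nuclear subunits of oxidative phosphorylation, including those of complex II, which has no mitochondrial subunit, 82 were in the table and 78 were tested. Their median was -0.174, beside 0.074 for the 15 mitochondrial genes and 0.031 for all genes tested, and with the library total alone it was 0.093, beside 0.337 and 0.299. Cox6c, a subunit of complex IV, was the highest, with 1449.3 ± 77 CPM (SD, n = 6). It was not called in edgeR (-0.25, SE 0.11, adjusted p = 0.3116) but was without the middle library of plate 2 (-0.34, adjusted p = 0.01816), where 12% of all genes tested were called, and with the library total alone it was at 0.01 (edgeR adjusted p = 0.9578), so that its direction turned with the scaling. Of the 78 subunits 35 were called lower in that fit (44.9%, beside 7.83% of all genes tested) and 3 higher (3.85%, beside 4.2%), and at most 1 was called with any other library left out. With all libraries, 25 of the 78 had an unadjusted p under 0.05 (32.1%, beside 16.1% of all genes tested), but with the library total alone 16 did (20.5%, beside 32%), so that the order of the shares was turned by the scaling. After adjustment 1 was called (1.28%, beside 0.185% of all genes tested), Ndufa4, a subunit first assigned to complex I and now placed in complex IV. It had 797.6, 722.5 and 901 CPM on plate 1 and 316.4, 335.2 and 265.8 CPM on plate 2, which did not overlap, and fell by 1.66 on the log2 scale (SE 0.13, edgeR adjusted p = 0.006669). Without plate 1 replicate 1 or without the plate 2 library with the lowest total its edgeR adjusted p was 0.05915 and 0.07171, with the same direction. DESeq2 called 5 of the 78, all lower (Ndufa4, Ndufb4, Ndufs5, Ndufb7 and Cox6a2; 6.41%, beside 2.71% of all genes tested). With no filter on low counts edgeR called 4 of 80 lower (Ndufa4, Ndufb7, Cox6a2 and Uqcrq; 5%, beside 1.07%) and 1 higher (Sdha; 1.25%, beside 0.944%). With the library total alone 5 were called higher (Atp5f1, Sdha, Atp5b, Atp5a1 and Ndufs1; 6.41%, beside 8.87% of all genes tested) and 2 lower (Ndufa4 and Cox6a2; 2.56%, beside 0.453%).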

How the data were processed

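As deposited, the table holds expected counts per gene. The authors made them by trimming with Trim Galore 0.6.4, assigning reads with Salmon 1.5.1 without length correction to transcripts and decoys of GRCm38 (GENCODE M23) and summing per gene with Tximeta, with no normalization. From these, CPM was computed here over the library total with unrounded values. Counts were rounded for edgeR 4.0.16 (filterByExpr, TMM scaling, quasi-likelihood test with robust estimation, Benjamini-Hochberg adjustment over all genes tested), limma 3.58.1 (voom) and DESeq2 1.42.0. The plate comparison was run on simulated data in which 200 genes were changed 4-fold. That run tested neither smaller changes nor the choice of scaling. Values per library were compared with exact permutation tests. Symbols, positions and sequences are from GENCODE M21 on the same build, which held 54107 of the 54281 gene identifiers. Every pair of libraries differed beyond sampling noise over the coding and rRNA genes, and 6 columns were used. All coding and rRNA genes are named with each value. Of tRNA genes, those with more than 3 counts in every library were to be named, of the nuclear lists the highest and the called genes, and of nuclear copies the 3 with the most counts. The members and lists were chosen with earlier results of these data known. The nuclear lists are not independent evidence. Alternatives were other scalings, filters, tools, pseudocounts and denominators, and leaving out each library.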

Additional observations from a re-analysis of the deposited data

Results flagged for a closer look

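Of 34 values examined across the 6 libraries (totals, levels and shares of the coding and rRNA genes), 3 had 1 library whose distance to its nearest neighbour exceeded 0.625 of the whole range, where chance gives about 1 in 20 groups. mt-Nd3 had 1442.7 CPM in the middle library of plate 2 against 859.4 to 1057.9 CPM in the others, and its mean without that library was 936.9 CPM instead of 1021.2 CPM. The share of mt-Nd3 counts assigned to the copy Gm28438 was 11.45% in that library, and the part of the split in this value was not tested. mt-Cytb had 8466.5 CPM in the plate 2 library with the highest total against 4326.2 to 5411.5 CPM, in the library that also had the highest share of counts on all 37 genes. mt-Co2 had 7.639% of the coding counts in the middle library of plate 2 against 12.34 to 13.81% in the others.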

How the results depend on the processing

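Genes called between the plates numbered 1461 with the library total alone, 579 with the DESeq2 Wald test, 10 with limma-voom, 545 with no filter on low counts, and 0 to 1911 with a library left out (1911 without the middle library of plate 2, 0 without plate 1 replicate 1 or the lowest library of plate 2). Of the mitochondrial genes 2, 1 and 2 were called with the library total alone, DESeq2 and no filter, and 0 with any library left out. mt-Co2 was at -0.022 with DESeq2 size factors and with DESeq2 and at -0.084 with limma-voom, mt-Nd4 at -0.012 with limma-voom and mt-Rnr2 at 0.138 with the library total alone, all uncalled and opposite to the TMM value. Leaving out a library, the log2 fold change ran from -0.051 to 0.304 for mt-Nd1, -0.087 to 0.221 for mt-Nd2, -0.395 to 0.217 for mt-Co2, -0.004 to 0.359 for mt-Atp8, -0.176 to 0.217 for mt-Nd3, -0.139 to 0.267 for mt-Nd4l, -0.175 to 0.240 for mt-Nd4, -0.016 to 0.243 for mt-Nd5, -0.157 to 0.304 for mt-Cytb and -0.249 to 0.037 for mt-Rnr2. Per kb, mt-Rnr2 minus mt-Rnr1 was 0.173, mt-Co1 minus mt-Co2 -1.66 and mt-Co3 minus mt-Co2 -0.0497. Leaving out a library moved mt-Co3 minus mt-Co2 from -0.0445 to 0.239. The difference of the shares of the coding counts (plate 2 minus plate 1, percentage points) was 0.0118 for mt-Nd1 with coding and rRNA counts as denominator and 0.298 for mt-Nd3 with Gm28438 added, an alternative chosen after seeing the data. With a library left out it ran from -2.72 to 0.192 for mt-Co2, -0.0441 to 0.0519 for mt-Atp8, -0.472 to 0.206 for mt-Nd3 and -0.0811 to 0.00293 for mt-Nd5. The causes were not tested. Bc1 left out of the totals, the fits with other tools, filters or libraries for the nuclear gene lists, and TMM library sizes for complex IV and for the sum of mt-Nd3 and Gm28438, were also chosen after seeing the data. No replicate number of the labels occurs on both plates, but the column headers number the replicates of each plate from 1. No source ties replicates of the same header number, and the deviations of such replicates correlated by 0.0805, 0.0823 and 0.129. A fit with this number as a replicate block, chosen after seeing the data, called 5 genes and no mitochondrial gene, with mt-Co2 at -0.083 and mt-Nd4 at -0.011. The mean share of counts and the other within-library differences kept their direction and their side of the threshold under the other pseudocounts and denominators. A sign-flip test over 5 libraries cannot pass the threshold, so that the differences without a library are given as values. At this depth the tRNA genes, with at most 13 counts in a library, allow no precise comparison between the plates. In edgeR with no filter on low counts none of those fitted was called. There mt-Tn was at -1.69 (SE 0.95, adjusted p = 0.5219) and mt-Tq at -1.09 (SE 0.97, adjusted p = 0.7082).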
